A study of Mus musculus with 22 samples.

Results

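The response of gene expression to thyroid hormone (TH) at 24 h was compared between mouse white adipose tissue (WAT) and striatum, gene by gene. The members were the 12766 gene symbols that stood on 1 row of each tissue's count table and had a mean normalised count above 10 in each tissue, of 57608 symbols in either table and 45120 on 1 row of each. A normalised count is a read count divided by the effective size of its library and multiplied by the mean effective size of that tissue. The value tested was the difference between the log2 change in WAT (TH 24 h minus control) and the log2 change in striatum (TH 24 h minus control), so that a positive difference marks a gene whose change was more positive in fat. It rests on 14 of the 22 libraries of the series: 4 control and 4 TH libraries of WAT, and 2 control (replicates 3 and 6) and 4 TH libraries of striatum.

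All mice are labelled as wild-type males of the C57BL/6J strain, aged 8 weeks. The control libraries of both tissues are labelled hypothyroid after 2 weeks of propylthiouracil (PTU), a drug that blocks the synthesis of thyroid hormone, and the others are labelled with TH and 24 h. The study describes TH as a single intraperitoneal injection of both hormone forms, T3 and T4. Its overview lists PTU in food among the WAT procedures and lists none that lowers TH for striatum, whose controls are called PTU here because their labels say so. Nothing states that replicates were separate animals, so p-values measure the spread between these libraries.

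T3, the active form of the hormone, enters cells through membrane transporters and binds nuclear receptors encoded by Thra and Thrb, which sit on DNA with a partner receptor and recruit coactivators once the hormone is bound. T4 is converted to T3 by the deiodinase Dio2 and both are inactivated by Dio3, so a tissue can set its own hormone level. In fat the hormone is known for its effects on lipid turnover, mitochondria and heat production. In brain it is known for its role in neuronal and myelin development, and in the adult striatum many neurons carry the receptor.

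Total counts ran from 8.06 to 9.81 M per striatum library and from 18.4 to 24.4 M per WAT library. The median standard error of a log2 change was 0.18 in striatum and 0.14 in WAT. Several libraries stood apart. In striatum, PTU replicate 6 and all 4 TH 24 h libraries had 22070 to 33693 normalised counts of Xist and at most 3.91 of Ddx3y, Uty, Kdm5d or Eif2s3y, although they are labelled male. PTU replicate 3 had 17.8 of Xist and 254 of Ddx3y, and was the single library of that kind in the striatum contrast. The WAT libraries of the contrast had 0.961 to 8.73 of Xist and 1093 to 1722 of Ddx3y. The kind of library thus nearly coincided with tissue. Striatum TH 24 h replicate 2 had 31.4 normalised counts of the dopamine receptor gene Drd2, against 941 to 2151 in the other 3 libraries of its group, and 12586 of the cortical gene Slc17a7, against 2686 to 7599. In WAT the summed level of 10 skeletal muscle markers ran from 2502 to 561293 in PTU libraries and from 42271 to 314716 at 24 h. The summed level of 8 adipocyte markers ran from 537713 to 703381 in WAT PTU libraries and from 392621 to 492624 at 24 h, without overlap, and from 72.3 to 94.2 in the striatum libraries, with Lep at 0 in both striatum groups. The 8 markers of epithelium and epididymis summed to 255 to 596 in WAT PTU libraries and to 63.1 to 122 at 24 h, with Trp63 and Pkp1 apart and Krt15 and Lcn5 at 0 at 24 h, and the 8 of choroid plexus summed to 202 to 296 in striatum PTU libraries and to 65.0 to 149 at 24 h, with Ttr and Clic6 apart. The 12 markers of striatal projection neurons summed to 43204 to 62442 in striatum PTU libraries and to 3794 to 65253 at 24 h. The part of these markers in the results was not tested. Groups did not overlap for 21.4% of all genes tested in WAT and for 18.2% in striatum.

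The change at 24 h differed between fat and striatum for 668 of the 12766 genes (5.23%), at an adjusted p under 0.05 in the quasi-likelihood test of edgeR. The change was more positive in WAT for 218 genes (1.71%) and more negative in WAT for 450 (3.52%), and the median size of the called differences was 1.04 on the log2 scale. Most of these genes moved in fat. WAT alone gave 3229 calls (25.3%), 1345 higher (10.5%) and 1884 lower (14.8%) than PTU, and striatum gave 40 (0.313%), 36 higher (0.282%) and 4 lower (0.0313%). Of the 668 genes, 610 were called in WAT, 21 in striatum, 7 in both and 44 in neither. The estimated changes had opposite signs for 71.4% of the 668 genes and for 45.0% of all genes tested. Selection on the difference itself favours opposite signs, so these shares do not measure how often responses were opposed. The change was the larger one in WAT for 583 of the 668. In bulk tissue, fewer cells of a type and less RNA per cell cannot be told apart.

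The striatum controls limit these counts. Without striatum PTU replicate 3, when only high-Xist libraries remain in the striatum contrast, 215 genes were called, and without PTU replicate 6 there were 201.

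The 668 genes were sorted by what each tissue did. A gene was placed in an opposite class when both tissues moved at an unadjusted p under 0.05 with opposite signs (115 genes, 0.901% of those tested). It was placed in a WAT-alone class when WAT was called and the 95% interval of the striatum change stayed within 0.5 of 0 on the log2 scale, a 1.41-fold change either way (233 genes, 1.83%). The mirror class, striatum alone, held 5 genes (0.0392%), and 17 genes (0.133%) moved in the same direction with unequal size. The other 298 (2.33%) differed between tissues but met none of these definitions. In the opposite class 94 genes were lower in fat and higher in striatum and 21 were the reverse. The WAT-alone class held 80 genes that rose in fat and 153 that fell.

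**Figure D1:**
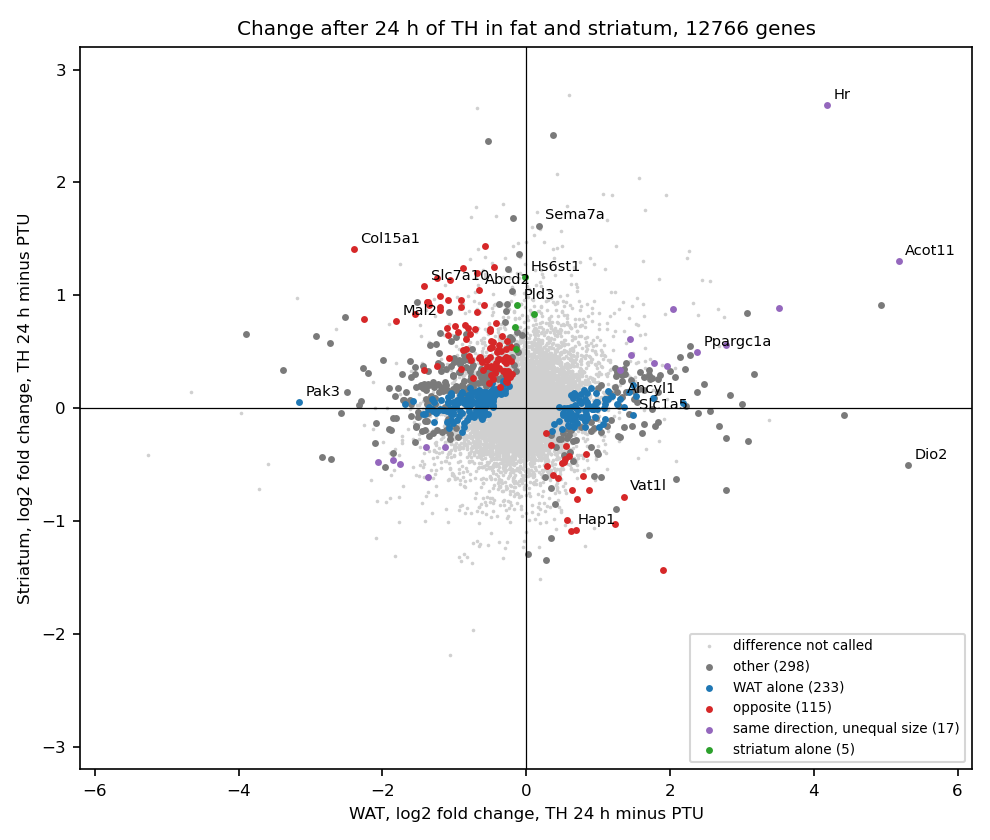
Log2 fold change at 24 h of TH against PTU in WAT (x axis) and striatum (y axis), 1 point per gene, coloured by response class, with 7 genes outside the axes. By definition, the blue WAT-alone points lie along the horizontal axis. Of the 115 red opposite genes, 94 lie at the upper left, lower in fat and higher in striatum.

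Genes known to respond to TH in many tissues were examined first. Hr, a corepressor gene and a classical TH target, had 118, 149.6, 167 and 91.0 normalised counts in the WAT PTU libraries and 2738, 2367, 2212 and 2307 at 24 h. In striatum it had 38.8 and 57.4 in the PTU libraries and 255, 381, 279 and 327 at 24 h. Neither tissue's groups overlapped. Hr rose by 4.19 ± 0.18 (SE) on the log2 scale in WAT (adjusted p = 5.78e-12) and by 2.69 ± 0.25 in striatum (adjusted p = 8.77e-06). The difference of 1.50 ± 0.29 was called (adjusted p = 0.00474), so that Hr rose in both tissues and more in fat. The difference was called in 13 of the 14 fits without 1 library.

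Other genes that the study discusses had differences that did not pass the test. Klf9, a transcription factor gene, rose by 1.30 ± 0.14 in WAT and by 0.88 ± 0.18 in striatum, with a difference of 0.42 ± 0.22 (95% interval -0.04 to 0.87). Trp53inp2, an autophagy and transcription cofactor gene, rose by 0.92 ± 0.13 in WAT and 0.84 ± 0.16 in striatum (difference 0.08 ± 0.20, interval -0.34 to 0.49). Stat5a, a cytokine-signalling transcription factor gene, rose by 1.19 ± 0.15 and 1.89 ± 0.34 (difference -0.70 ± 0.39, interval -1.51 to 0.10), from 7.34 and 13.8 counts in the striatum controls. Desi1, a SUMO protease gene, had a difference of 0.21 ± 0.18 (interval -0.17 to 0.60). Desi1 overlaps Xrcc6 and Stat5a overlaps Stat3 on the opposite strand, and the strand setting of the counts is not given in the sources used here. These intervals leave room for differences of up to 1.51 on the log2 scale (Stat5a). The genes belong to a list of 7 genes that were chosen on these samples, of which 5 rose and 1 fell in WAT and 4 rose in striatum.

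The receptors and the hormone-handling genes moved unevenly. Dio2, which converts T4 to T3, had 6.72, 5.99, 17.1 and 8.61 counts in WAT PTU libraries and 113, 813, 602 and 70.8 at 24 h, all higher. In striatum it had 3090.5 and 3426 without TH and 1886, 3130.0, 1913 and 2243 at 24 h, with overlap. The WAT change was 5.31 ± 0.67 and the striatum change -0.51 ± 0.53, a difference of 5.82 ± 0.85 (adjusted p = 0.000374). The WAT PTU mean of Dio2, 9.62, was below the minimum of 10, so Dio2 passed the filter in fat through the TH libraries. Thra, the receptor gene of most tissues, had 1748, 2115, 2123 and 1565 counts in WAT PTU libraries and 1321, 841, 1116 and 1279 at 24 h, all lower, and 2616 and 2548 without TH and 2496, 3518, 2532 and 3468 with it in striatum (difference -0.95 ± 0.24, adjusted p = 0.0236). Its neighbour Nr1d1 overlaps it on the other strand and fell as well in WAT, so their reads may not be separable. Thrb, the second receptor gene, had 0.34 ± 0.13 in WAT and 0.39 ± 0.16 in striatum, with a difference of -0.06 ± 0.21 (interval -0.49 to 0.38). Slc16a10, a transporter of thyroid hormone and aromatic amino acids, fell by 0.93 ± 0.12 in WAT and had 0.32 ± 0.20 in striatum (difference -1.26 ± 0.24, adjusted p = 0.00398). Tbl1x, a subunit of the corepressor complex that the empty receptor binds, fell by 0.83 ± 0.13 in WAT (difference -0.91 ± 0.21, adjusted p = 0.0151). In all, 5 of 19 genes of TH signalling differed between tissues (26.3%, against 5.23% of all genes), 2 positive (Dio2, Hr) and 3 negative. Among these 5, 1 (Dio2) was called in all 14 fits without 1 library.

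Col15a1 had the smallest p of all genes. It encodes type XV collagen of the basement membrane and lies at chr4:47208161-47313167 (GRCm38, plus strand). It had 3654, 7913, 6403 and 4614 counts in the WAT PTU libraries and 1159, 839, 1161 and 1118 at 24 h, and 48.2 and 64.3 in the striatum PTU libraries and 116, 182, 132 and 169.5 at 24 h. Every TH library was lower than every PTU library in fat and higher in striatum. Col15a1 fell by 2.40 ± 0.20 in WAT (adjusted p = 5.42e-08) and rose by 1.41 ± 0.29 in striatum (adjusted p = 0.0373), a difference of -3.81 ± 0.36 (adjusted p = 1.11e-05).

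Slc7a10, at chr7:35186385-35201114 on the plus strand, encodes a transporter of small neutral amino acids. It had 1950.2, 3128, 2403 and 2154 counts in WAT PTU libraries and 833, 942, 688 and 1148 at 24 h. In striatum it had 72.3 and 81.1 without TH and 166, 147, 164 and 172 with it, again with no overlap in either tissue. It fell by 1.42 ± 0.15 in WAT and rose by 1.08 ± 0.21 in striatum (difference -2.50 ± 0.26, adjusted p = 2.18e-05). Slc7a10 is also an astrocyte marker. The 7 astrocyte markers summed to 47156 to 53258 in striatum PTU libraries and to 59253 to 73729 at 24 h. Slc1a2 and Slc7a10 were higher in all TH libraries, Slc1a3 was lower and no marker was at 0, where 18.2% of all genes had striatum groups apart. Their part in the result was not tested.

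Abcd2, a peroxisomal transporter of very long fatty acids at chr15:91145871-91191799 on the minus strand, had 7127, 9516, 6621 and 6768 counts in WAT without TH and 4771, 4539.6, 4983 and 4739.9 at 24 h. Its striatum counts were 278 and 357 without TH and 711, 606, 705 and 603 at 24 h. It fell by 0.66 ± 0.12 in WAT and rose by 1.05 ± 0.16 in striatum, both called (adjusted p = 0.000409 and 0.00464), and the difference was -1.71 ± 0.20. Mal2, a membrane traffic protein at chr15:54571192-54602847 on the plus strand, fell by 1.81 ± 0.19 in WAT and had 0.77 ± 0.21 in striatum (difference -2.58 ± 0.29, adjusted p = 4.13e-05), with 270.0, 215, 214 and 166 counts without TH against 72.3, 45.6, 48.8 and 80.8 with it in fat and 1537 and 1288 without TH against 2452, 2984, 2332 and 1878 with it in striatum. Plcb1, a phospholipase of receptor signalling at chr2:134786067-135475258 on the plus strand, fell by 1.43 ± 0.13 in WAT and had 0.34 ± 0.16 in striatum (difference -1.77 ± 0.21). The groups of these 3 genes did not overlap in either tissue, which was a condition for choosing them, as for Col15a1 and Slc7a10. For Plcb1 the striatum groups were barely apart, with a highest PTU count of 1769.6 and a lowest TH count of 1770.7. Non-overlap held for 46 of the 94 opposite genes that were lower in fat, a class that already required a change in both tissues. It held for 4.25% of all genes tested.

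In the reverse direction, Hap1 encodes the huntingtin-associated protein of vesicle transport and lies at chr11:100347327-100356128 on the minus strand. It had 75.9, 39.5, 91.1 and 65.2 counts in WAT PTU libraries and 118, 114, 101 and 91.9 at 24 h, and 914 and 925 in striatum PTU libraries and 456, 334, 525 and 416 at 24 h. It rose by 0.63 ± 0.23 in fat and fell by 1.09 ± 0.23 in striatum, both called (adjusted p = 0.0468 and 0.038), and differed by 1.71 ± 0.32 (adjusted p = 0.00343). The groups were separate in both tissues, upward in fat and downward in striatum, which was again a condition for choosing the gene.

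Vat1l, at chr8:114205612-114374071 on the plus strand, had 74.0, 98.2, 122 and 106 counts in WAT without TH and 199.7, 311, 269 and 245 at 24 h, and 1880.1 and 2309.7 without TH and 1327, 954, 1518 and 1062 with it in striatum. Its difference was 2.14 ± 0.34, with 1.36 ± 0.23 in WAT and -0.79 ± 0.25 in striatum. Fdx1, an electron donor of mitochondrial steroid hydroxylases, and Ap1g2, a clathrin adaptor subunit, differed by 1.01 ± 0.22 and 0.97 ± 0.19. Ap1g2 overlaps Thtpa on the other strand, and Slc7a10 overlaps Lrp3, so some of their reads may belong to the partner.

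Of the 115 opposite genes, 6 were called in each tissue on its own: Col15a1, Slc7a10, Abcd2, Ephb6, Adamts2 and Hap1. Ephb6, an ephrin receptor without kinase activity, fell by 1.06 in WAT and rose by 1.14 in striatum, and Adamts2, the protease that trims procollagen, fell by 0.44 and rose by 1.25. Adamts2 had 1108, 1376, 1347 and 799 counts in WAT without TH and 807, 877, 829.9 and 891 at 24 h, so that its fat groups overlapped, and 37.7 and 44.5 without TH and 86.0, 106, 115 and 86.3 with it in striatum. For the others the striatum side of the opposition rests on an unadjusted p. Over the 94 genes lower in fat, the median change was -0.53 in WAT and 0.51 in striatum, and over the 21 of the reverse kind it was 0.60 and -0.60.

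**Figure D2:**
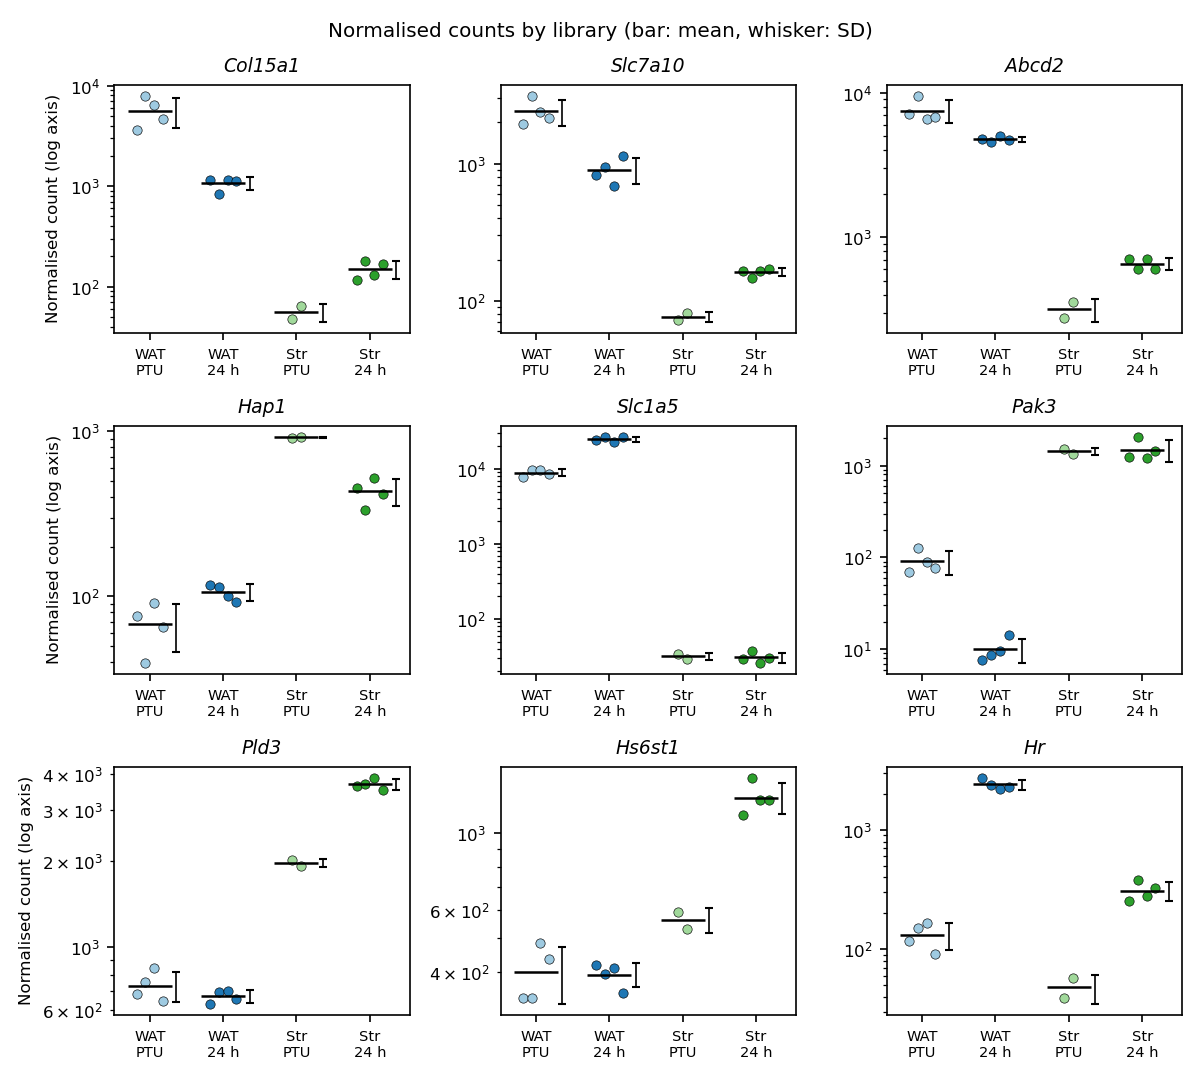
Normalised counts (log axis, arbitrary level per tissue) of 9 genes in each of the 14 libraries, with the mean as a bar and the SD as a whisker beside it. Col15a1, Slc7a10 and Abcd2 move down in WAT and up in striatum, Hap1 the reverse, Slc1a5 and Pak3 separate in WAT with overlapping striatum groups, Pld3 and Hs6st1 the reverse, and Hr up in both.

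By its definition, the WAT-alone class held only genes whose striatum interval stayed within 0.5 of 0. Slc1a5, a glutamine transporter, had 7803, 9741, 9773 and 8586 counts in the WAT PTU libraries and 24528, 26548, 22620.3 and 26501 at 24 h, and 34.6 and 29.7 without TH against 29.3, 37.0, 26.2 and 30.1 with it in striatum, where the groups overlapped. It rose by 1.48 ± 0.10 in fat, with -0.07 ± 0.18 in striatum (95% interval -0.44 to 0.30) and a difference of 1.55 ± 0.21 (adjusted p = 0.000145). Ahcyl1, a regulator of calcium release from the endoplasmic reticulum, had 2178, 2023, 1966 and 1656 counts in WAT PTU libraries and 4177, 5118, 5480.5 and 4587 at 24 h, and 3319 and 3418 without TH and 3765, 3556, 3407 and 3512 with it in striatum. Its difference was 1.23 ± 0.15 (adjusted p = 5.58e-05), with 1.31 ± 0.10 in WAT and a striatum interval of -0.16 to 0.32. Zhx3, a homeobox repressor gene that overlaps Plcg1 on the other strand, rose by 1.48 ± 0.11 in WAT against 0.21 ± 0.13 in striatum. Ccdc138 and 4931406C07Rik rose by 2.18 ± 0.19 and 1.76 ± 0.15 in WAT, with 0.04 ± 0.22 and 0.09 ± 0.19 in striatum, and the latter overlaps Taf1d on the other strand.

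Among the genes that fell in fat, Pak3, a kinase downstream of Rac and Cdc42, had 69.2, 128, 88.4 and 77.5 counts in WAT PTU libraries and 7.72, 8.73, 9.55 and 14.4 at 24 h, whereas striatum had 1530.0 and 1330.4 without TH and 1231, 2057, 1214 and 1425 with it. It fell by 3.16 ± 0.25 in WAT, with 0.05 ± 0.20 in striatum (interval -0.36 to 0.46), a difference of -3.21 ± 0.33 (adjusted p = 2.18e-05). Pank3, a rate-limiting kinase of coenzyme A synthesis, fell from 3764, 5791, 4546 and 6139.8 counts without TH to 1717, 1319, 1898 and 1844 with it in fat and had 1667 and 1825 without TH and 1897, 1795, 1816 and 1785 with it in striatum (difference -1.64 ± 0.21, adjusted p = 0.000101). The groups of Pank3 were apart in fat and overlapped in striatum. Ywhab, a 14-3-3 adaptor protein, fell by 1.01 ± 0.09, with 14356, 17258, 13853 and 13775 counts without TH and 6829.6, 8268, 6983 and 7274 at 24 h, and differed by -1.06 ± 0.15. Cd164, a sialomucin of the cell surface and lysosome, and Tmem43, a protein of the inner nuclear membrane, fell by 0.89 ± 0.08 and 1.19 ± 0.10 in WAT and differed by -1.04 ± 0.13 and -1.19 ± 0.16. Over the class, the median change of the 80 risen genes was 0.82 in WAT and -0.00336 in striatum. That of the 153 fallen genes was -0.71 and 0.05. The class definition holds the striatum medians near 0. Of the 8 adipocyte markers, Adipoq, Plin1, Cidec and Retn were lower in every WAT library at 24 h than in every PTU library, while Lep, Cfd, Lipe and Fabp4 overlapped and none was at 0, and 21.4% of all genes had WAT groups that did not overlap. Their part in these results was not tested.

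All 5 genes of the striatum-alone class rose in striatum. Pld3, a lysosomal nuclease of neurons, had 2002 and 1918 counts in the striatum PTU libraries and 3641, 3706, 3888 and 3514 at 24 h, and 683, 753, 845 and 646 without TH against 633, 695, 703 and 656 with it in WAT. It rose by 0.91 ± 0.12 in striatum (adjusted p = 0.000924), with -0.12 ± 0.10 in WAT (interval -0.32 to 0.08) and a difference of -1.04 ± 0.15 (adjusted p = 0.000376). Hs6st1, which adds sulfate to heparan sulfate chains, had 594 and 529 without TH and 1122, 1435, 1239 and 1236 with it in striatum and 336, 338, 485 and 435 without TH and 419.6, 394, 409.7 and 349 with it in WAT. It rose by 1.16 ± 0.15 in striatum (adjusted p = 0.000889) and differed by -1.18 ± 0.19 (adjusted p = 0.000813). For both genes the striatum groups were apart and the WAT groups overlapped, as was the case for Ust, Tank and Tbc1d30. Striatum groups did not overlap for 18.2% of all genes tested. Ust, which also adds sulfate to proteoglycan chains, rose by 0.72 ± 0.15 in striatum against -0.16 ± 0.12 in WAT. Tank, an adaptor of innate immune signalling, rose by 0.52 ± 0.11 against -0.15 ± 0.09, and Tbc1d30, an activator of a Rab GTPase, by 0.83 ± 0.13 against 0.10 ± 0.15. Tbc1d30 was called in 7 of the 14 fits without 1 library, Pld3 and Hs6st1 in all 14.

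A list of 14 genes known to respond to TH in brain had 5 that rose in striatum and 2 in WAT, and a median change of 0.53 in striatum and -0.02 in WAT, against 0.02 and -0.04 over all genes tested. Of them, 4 differed between tissues (28.6%, against 5.23% of all genes), Hr upward and 3 with the larger rise in striatum. Sema7a, a membrane semaphorin, had 326 and 289.8 counts in the striatum PTU libraries and 810.4, 1308, 848 and 809.6 at 24 h, and 409, 321, 319 and 223 without TH against 359, 529.5, 282 and 267 with it in WAT. It rose by 1.62 ± 0.26 in striatum and had 0.18 ± 0.20 in fat (difference -1.44 ± 0.32, adjusted p = 0.0109). Nrgn, a calmodulin-binding protein of dendritic spines, had 3417 and 2787 counts without TH and 5484, 12236, 6330.3 and 7942 with it in striatum and rose by 1.37 ± 0.26, with -0.10 ± 0.26 in WAT. Aldh1a1, a retinal dehydrogenase, rose from 18.9 and 16.8 without TH to 64.5, 152, 54.8 and 111 with it in striatum and had 2178, 1842, 1261 and 1335 without TH and 2343, 2654, 1460.3 and 2143 with it in WAT, which gave 2.42 ± 0.42 in striatum and 0.38 ± 0.22 in fat. For all 3 genes TH 24 h replicate 2, the library with high cortical and low projection neuron markers, had the highest striatum count. The 10 cortical markers summed to 8935 to 16596 in striatum PTU libraries and to 10966 to 44548 at 24 h. None of the 3 genes was among the calls kept in all 14 fits without 1 library.

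Genes of energy metabolism rose in fat. In a list of 22 genes of the citric acid cycle and pyruvate dehydrogenase, 14 rose and 2 fell in WAT, none was called in striatum, and 6 differed between tissues (27.3%, against 5.23% of all genes). Of these, 5 had the more positive change in fat. Among all genes tested, 10.5% rose and 14.8% fell in WAT. Pdhb, a subunit of pyruvate dehydrogenase, which feeds pyruvate into the cycle, had 7840.3, 5836, 4621 and 5262 counts in WAT PTU libraries and 14802, 12866, 16990.1 and 15589.8 at 24 h, and 839 and 868 without TH and 827, 895, 842 and 863 with it in striatum. It rose by 1.35 ± 0.15 in WAT, with 0.01 ± 0.18 in striatum (difference 1.35 ± 0.23, adjusted p = 0.00153). Dlat, its acetyltransferase subunit, rose by 1.10 ± 0.12 against 0.08 ± 0.15 in striatum. Suclg1, a subunit of succinyl-CoA ligase, had 2102, 2108, 1857 and 2365 counts in WAT without TH and 3752, 4255, 4879 and 3764 at 24 h, against 438 and 465 without TH and 449.7, 429, 479.8 and 437 with it in striatum (difference 0.99 ± 0.17, adjusted p = 0.0013).

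Idh3a, the catalytic subunit of isocitrate dehydrogenase, rose by 1.30 ± 0.10 in WAT and had 0.34 ± 0.12 in striatum, where its groups were also apart, with a difference of 0.97 ± 0.16 (adjusted p = 0.00106). Mdh1, the cytosolic malate dehydrogenase, differed by 0.67 ± 0.19 (adjusted p = 0.0469). Pdp1, a phosphatase that activates pyruvate dehydrogenase, was the exception. It fell by 0.52 ± 0.13 in WAT and differed by -0.73 ± 0.19 (adjusted p = 0.0278). The list's median change was 0.41 in WAT and 0.10 in striatum, and Dlat, Idh3a, Pdhb and Suclg1 kept their call whichever of the 14 libraries was left out.

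In a list of 18 thermogenesis genes, 12 rose in WAT, none fell and none was called in striatum, with medians of 0.81 and 0.24. The 5 that differed (27.8%, against 5.23% of all genes) were all more positive in fat: Acot11, Dio2, Esrrg, Ppargc1a and Sirt3. Ppargc1a, the coactivator of mitochondrial biogenesis, had 61.5, 68.2, 90.2 and 77.5 counts in WAT PTU libraries and 281, 504, 370.4 and 393 at 24 h, and 345 and 338 without TH against 475, 438, 542 and 469.5 with it in striatum. It rose by 2.37 ± 0.16 in WAT, with 0.49 ± 0.18 in striatum and a difference of 1.88 ± 0.24 (adjusted p = 0.000101). Its groups were apart in the same direction in both tissues. Acot11, an acyl-CoA thioesterase of brown fat, rose from 44.2, 41.9, 71.3 and 39.4 counts without TH to 2031, 777, 2390.0 and 2067 with it in WAT and had 59.7 and 57.4 without TH and 114, 151, 161 and 153 with it in striatum, a change of 5.18 ± 0.32 against 1.30 ± 0.38 (difference 3.88 ± 0.48, adjusted p = 9.43e-05).

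Esrrg, a nuclear receptor of oxidative metabolism, rose by 2.00 ± 0.33 and Sirt3, a mitochondrial deacetylase, by 0.86 ± 0.14 in WAT. Their differences were 1.67 ± 0.46 and 0.83 ± 0.23. Ucp3, a mitochondrial carrier of muscle and brown fat, rose by 2.45 ± 0.18 in WAT and had 1.13 ± 0.48 in striatum, a difference of 1.32 ± 0.57 that was not called. Some of these genes are also high in skeletal muscle, whose markers varied within both WAT groups with overlap. Their part was not tested.

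**Figure D3:**
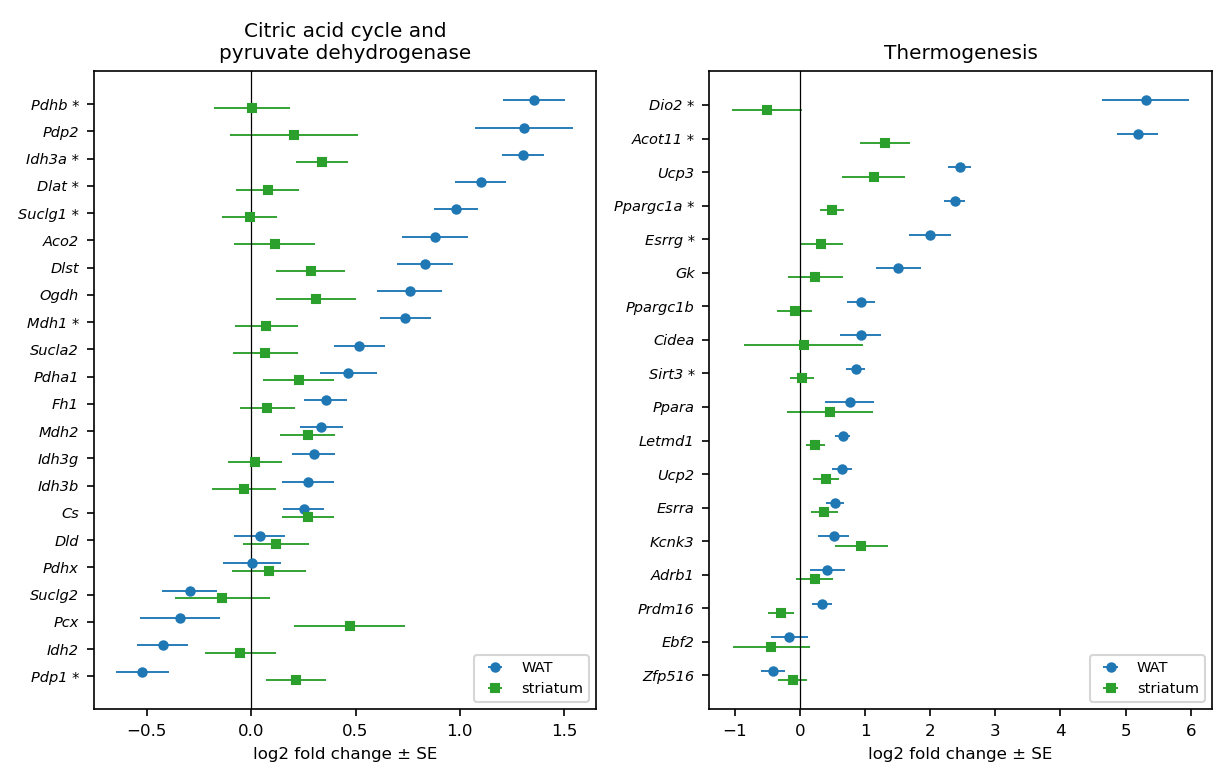
Log2 fold change with its standard error at 24 h of TH against PTU in WAT (circles) and striatum (squares) for the 22 genes of the citric acid cycle list and the 18 of the thermogenesis list, ordered by the WAT change. An asterisk marks an adjusted p under 0.05 for the difference between tissues, given for 6 and 5 genes.

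Glycolysis and glucose uptake moved in the same sense, with 11 of 27 genes risen and 1 fallen in WAT and none called in striatum. Of the 27 genes, 4 differed (14.8%, against 5.23% of all genes), all more positive in fat: Pfkfb1, Gpi1, Pgk1 and Ldhb. None of these 4 was called in all 14 fits without 1 library. Pfkfb1, which sets the level of fructose 2,6-bisphosphate, had 593, 739.9, 525 and 567 counts in WAT PTU libraries and 1395, 1338, 1662 and 1583 at 24 h, and 18.9 and 16.8 without TH against 16.6, 17.9, 11.9 and 13.0 with it in striatum. Its difference was 1.56 ± 0.31 (adjusted p = 0.00565). Pfkfb1 overlaps Apex2 on the other strand, so their reads may not be separable. Apex2 had 1.01 in WAT and -0.17 in striatum, a called difference of 1.18. Gpi1 and Pgk1, both glycolytic enzymes, rose by 0.67 ± 0.13 and 0.97 ± 0.17 in WAT. Ldhb, a lactate dehydrogenase subunit, rose by 0.84 ± 0.15 in WAT, where PTU replicate 1 had 2120.3 counts and the other 3 had 1204 to 1262. The 38 mitochondrial carriers had 13 risen and 4 fallen in WAT, 1 risen in striatum and 6 that differed (15.8%). Slc25a42, a coenzyme A carrier, rose by 1.75 ± 0.16 in WAT (difference 1.49 ± 0.25, adjusted p = 0.00127). Slc25a28, an iron carrier, and Slc25a51, a carrier of NAD, also had the more positive change in fat, whereas Slc25a10 and Slc25a16 had the more negative. Among the 6 carriers, 1 (Slc25a42) was called in all 14 fits without 1 library.

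Of 79 nuclear-encoded respiratory chain genes, 21 rose and 1 fell in WAT (10.5% and 14.8% of all genes tested did), with a median of 0.19 against 0.02 in striatum, and none differed between tissues. Of 77 mitochondrial ribosome genes, 20 rose and 2 fell in WAT, with a median of 0.07, and 1 differed (1.3%), Mrpl47, by 0.74 ± 0.18 (adjusted p = 0.0189). Mrpl47 overlaps Ndufb5 and Actl6a on the other strand. The absence of calls does not show equal change, since the median standard error of a difference was 0.24.

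Lipid genes moved in several directions. Acsl1, which activates long-chain fatty acids, had 43773, 53510.1, 48580.2 and 39482 counts in WAT PTU libraries and 7361, 16760.1, 17269 and 7997 at 24 h, all lower, and 376 and 384 without TH and 437, 407, 391 and 488 with it in striatum. It fell by 1.91 ± 0.21 in WAT and differed by -2.09 ± 0.34 (adjusted p = 0.00114), the single difference among 28 genes of fatty acid and triglyceride synthesis. In that list, 8 rose and 3 fell in WAT. Lpl, the lipase that frees fatty acids from lipoproteins, had 123257, 187758, 135905 and 144036 counts in WAT without TH and 80447, 84971, 91978 and 86792 at 24 h, and 442 and 510.4 without TH and 1004, 426, 1024 and 559 with it in striatum, where the groups overlapped. It fell by 0.78 ± 0.21 in WAT and had 0.66 ± 0.27 in striatum (difference -1.44 ± 0.35, adjusted p = 0.0199), the single difference among 20 lipolysis and lipid droplet genes, of which 3 rose and 8 fell in fat. Pdk4, which blocks pyruvate dehydrogenase, had 769, 1155, 2444 and 1747 counts in WAT without TH and 2627, 17059.7, 18163 and 3946 at 24 h, with a difference of 3.04 ± 0.83 (adjusted p = 0.036). Acaa2, the last enzyme of mitochondrial fatty acid oxidation, differed by 0.85 ± 0.23 (adjusted p = 0.0375), so that 2 of 27 genes of fatty acid oxidation differed (7.41%, near the share of all genes). Pdk4 and Acaa2 were each called in 7 of the 14 fits without 1 library. None of 25 cholesterol genes differed.

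Transporters of amino acids held 4 differences among 32 genes (12.5%, against 5.23% of all genes), each called whichever of the 14 libraries was left out. Beside Slc1a5 and Slc7a10, Slc1a1, a transporter of glutamate and cysteine, had 24.0, 18.0, 10.8 and 7.38 counts in WAT PTU libraries and 103, 58.2, 84.9 and 75.3 at 24 h, and 1140.2 and 1308 without TH and 1301, 1079.6, 1247 and 1129.6 with it in striatum. It rose by 2.39 ± 0.29 in WAT and differed by 2.43 ± 0.38 (adjusted p = 0.00063). Slc7a6, a transporter of basic and neutral amino acids, rose by 0.98 ± 0.11 in WAT and had 0.04 ± 0.14 in striatum. The list as a whole had medians of -0.02 in WAT and 0.10 in striatum.

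Clock genes differed in 4 of 19 cases (21.1%, against 5.23% of all genes), all more negative in fat. In all 14 fits without 1 library, 2 of the 4 were called. Nr1d1, the repressor REV-ERB alpha, had 3288, 2657, 2868 and 2528 counts in WAT PTU libraries and 807, 781, 673 and 1313 at 24 h, against 1054 and 1114 without TH and 1111, 1313, 1104 and 1253 with it in striatum. It fell by 1.67 ± 0.16 in WAT, with 0.14 ± 0.19 in striatum and a difference of -1.81 ± 0.26 (adjusted p = 0.000268). Cry2, a repressor of the clock's activators, fell by 1.05 ± 0.14 (difference -1.16 ± 0.21). Nr1d2 and Rora, a further repressor and an activator of the same DNA element, fell by 1.30 ± 0.21 and 1.02 ± 0.18. Of the 19 genes, 1 rose and 6 fell in WAT and none was called in striatum. The hour at which the libraries of each group were collected is not given in the sources used here.

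In insulin and FOXO signalling 4 of 26 genes differed (15.4%, against 5.23% of all genes). Pik3cb, a catalytic subunit of PI3 kinase, had 1276, 1419.8, 1414 and 948 counts in WAT without TH and 511, 446, 636 and 490.3 at 24 h, and fell by 1.28 ± 0.13 (difference -1.33 ± 0.22, adjusted p = 0.00105). Gsk3b, the glycogen synthase kinase, had 818, 873, 883 and 857 without TH and 624, 572, 631 and 564 with it in WAT and 3871 and 4421 without TH and 4735, 4891, 5028 and 4687 with it in striatum, apart downward in fat and upward in striatum. It fell by 0.52 ± 0.08 in WAT and had 0.22 ± 0.09 in striatum (difference -0.74 ± 0.12, adjusted p = 0.00127). Foxo6 rose from 6.72, 1.2, 1.8 and 2.46 counts without TH to 135, 18.4, 45.6 and 85.2 with it in WAT, and Akt1 rose by 0.85 ± 0.10.

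Several caveola genes fell in fat more than in striatum, while 2 single collagens differed, 1 in each direction. In the caveola list 4 of 7 genes fell in WAT and 3 differed (42.9%, against 5.23% of all genes), Cav1, Cav2 and Pacsin3. None of these 3 was called in all 14 fits without 1 library. Cav1, the main coat protein of caveolae, had 25293, 31989.7, 25893 and 22543 counts in WAT PTU libraries and 14001, 12592, 10491 and 13679 at 24 h and fell by 1.06 ± 0.11, with -0.27 ± 0.14 in striatum and a difference of -0.79 ± 0.18 (adjusted p = 0.0161). Cav2, its partner, fell by 1.35 ± 0.23 (difference -1.55 ± 0.37). Caveola genes are also high in endothelium, whose 8 markers summed to 10976 to 16601 in WAT PTU libraries and to 9928 to 12865 at 24 h. No endothelial marker was apart between groups. The 8 adipocyte markers summed to 537713 to 703381 in WAT PTU libraries and to 392621 to 492624 at 24 h, without overlap. The part of either marker set was not tested. Of 25 collagens, 3 rose and 6 fell in WAT and 2 differed (8%, near the 5.23% of all genes), Col15a1 and Col6a4. Col6a4 had a difference of 1.60 ± 0.46 in the opposite direction (adjusted p = 0.0467), with overlapping groups in both tissues. The difference of Col6a4 was called in 4 of the 14 fits without 1 library. Of 39 genes of the TGF-beta and BMP pathway, 10 fell and 3 rose in WAT, and Bmpr2, Bmp3 and Tgfb2 differed (7.69%, near the 5.23% of all genes), all more negative in fat. Bmpr2, a receptor of bone morphogenetic proteins, fell by 0.71 ± 0.11 in WAT (difference -0.85 ± 0.18).

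In the hedgehog pathway, Gli1, a transcription factor, had 2.1 and 4.95 counts in striatum PTU libraries and 18.6, 6.73, 27.4 and 22.1 at 24 h, and 35.5, 32.3, 21.7 and 17.2 without TH and 19.3, 15.5, 19.1 and 19.9 with it in WAT. Its difference was -2.90 ± 0.67 (adjusted p = 0.0144), with 2.37 ± 0.58 in striatum and -0.53 ± 0.33 in WAT, neither called alone. The striatum PTU mean of Gli1, 3.52, was below the minimum of 10, so Gli1 passed the filter there through the TH libraries. Gas1, a coreceptor, fell by 0.74 ± 0.18 in WAT (difference -1.12 ± 0.28). Of 11 genes of the list tested, 2 rose and 2 fell in WAT, and neither Gli1 nor Gas1 was called in all 14 fits without 1 library.

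Among single genes of other lists, Syt12, a synaptotagmin of vesicle release, rose from 223, 268, 230.1 and 159 counts without TH to 1578, 1084, 1443 and 1558 with it in WAT and had 110.0 and 157 without TH and 136, 65.0, 146 and 132 with it in striatum (difference 2.84 ± 0.31, adjusted p = 3.37e-05), the single difference among 35 exocytosis genes. Kcnk2, a background potassium channel, fell by 2.27 ± 0.29 in WAT (difference -2.63 ± 0.44), and Kcnn3 by 2.06 ± 0.38, among 37 potassium channels of which 3 differed, all more negative in fat. Apln, the peptide apelin, rose by 3.52 ± 0.34 in WAT from 13.4, 32.3, 36.1 and 19.7 counts and had 0.89 ± 0.33 in striatum (difference 2.63 ± 0.46). Vegfb, a vascular growth factor gene, fell by 0.46 ± 0.08 in WAT (difference -0.49 ± 0.13, adjusted p = 0.0363). The difference of Vegfb was called in 6 of the 14 fits without 1 library. Cdkn1a, an inhibitor of the cell cycle, rose by 1.79 ± 0.23 in WAT (difference 1.94 ± 0.36), and Arc, an immediate early gene, by 2.48 ± 0.27 (difference 2.26 ± 0.39). In the cell cycle list Ccnd1 and Ccnd2, which encode cyclins of the entry into division, differed in opposite directions, by 0.98 ± 0.20 and -0.96 ± 0.19. Fzd3, a Wnt receptor, fell by 1.31 ± 0.19 in WAT (difference -1.39 ± 0.25), 1 of 32 Wnt genes. Of 39 autophagy genes, Atg7, Bnip3 and Bnip3l differed (7.69%), with -1.11 ± 0.23 and -1.52 ± 0.36 for the first pair, and of 24 genes of the unfolded protein response, Asns and Syvn1 differed (8.33%), by -0.91 ± 0.20 and -0.78 ± 0.17. These shares, with 8.11% of the potassium channels, 6.06% of the cell cycle list, 3.12% of the Wnt list and 2.86% of the exocytosis list, were near the 5.23% of all genes tested, so the values describe single genes and not the lists. No gene differed among 17 interferon genes or 12 myelin genes.

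**Figure D4:**
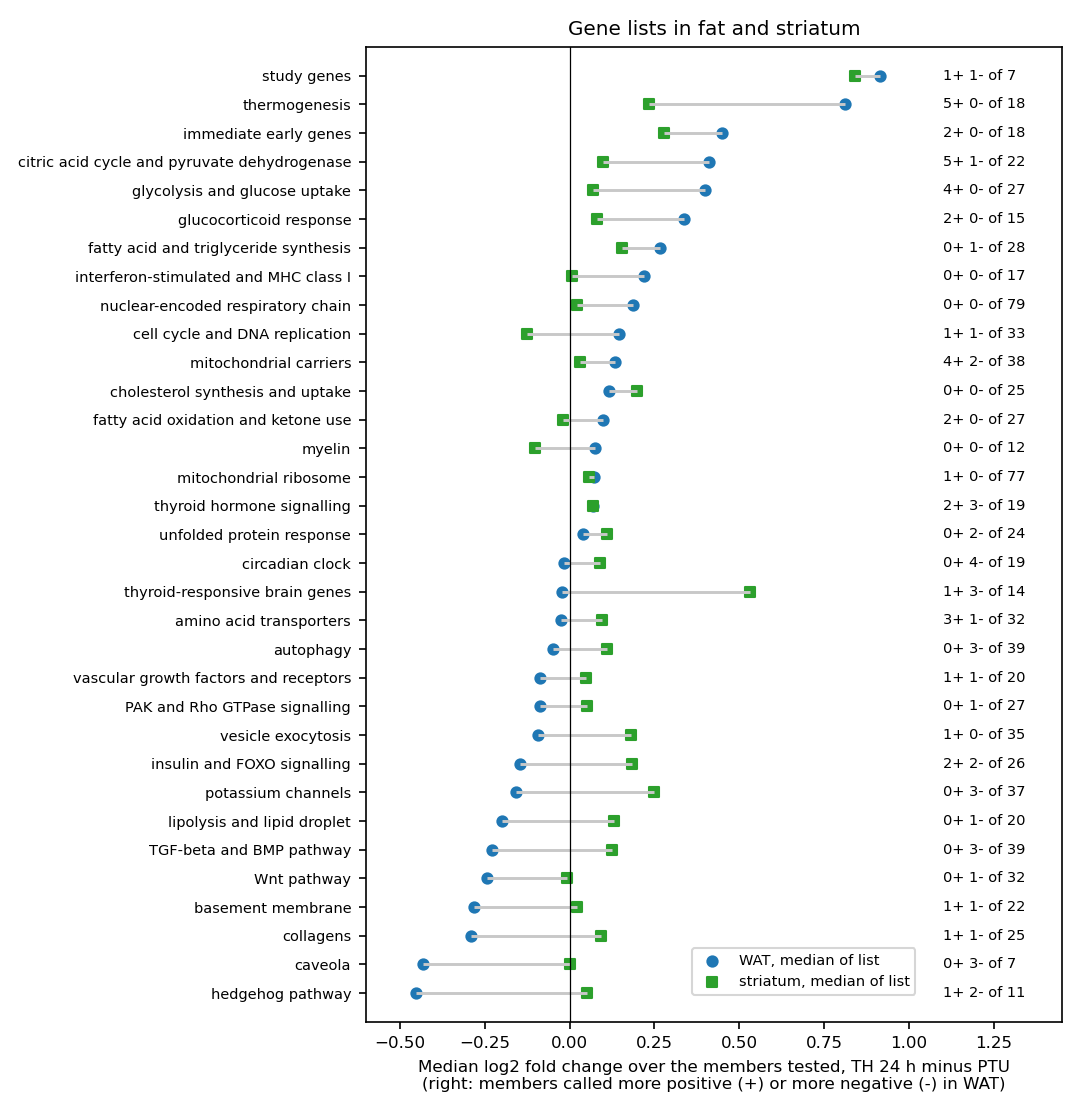
Median log2 fold change at 24 h of TH against PTU over the tested members of each of 33 gene lists in WAT (circles) and striatum (squares), with the number of members called more positive (+) or more negative (-) in WAT at the right. The thermogenesis list has the widest gap on the side of fat (0.81 against 0.24), and the thyroid-responsive brain genes on the side of striatum (0.53 against -0.02).

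Promoter sequence was examined for the hexamer AGGTCA that TH receptors bind. Windows of 300 bases, from 250 before to 50 after each start that RefSeq gives for a gene, were read on GRCm38.p6. The letters AGGTCA, read on either strand, stood in 16.3% of all 32851 windows. They stood in the windows of 9 of the 60 named genes that had one (15%), of 14 of 87 opposite genes (16.1%), of 21 of 182 WAT-alone genes (11.5%) and of 1347 of the 9443 genes tested (14.3%). The repeat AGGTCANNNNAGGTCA stood in 5 windows, none of a gene tested. None of the 5 thermogenesis genes that differed held a hexamer. Such letters are a match and not a site. The stretches of 60 bases around the match are shown for 1 gene of the opposite class, 2 of the genes that rose in fat alone and 1 of the striatum-alone class, each read on the gene's strand with the hexamer or its complement in capitals.
Ap1g2 (chr14:55106643-55106702, minus strand): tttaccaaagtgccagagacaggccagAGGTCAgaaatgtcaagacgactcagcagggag
Ldhb (chr6:142508082-142508141, minus strand): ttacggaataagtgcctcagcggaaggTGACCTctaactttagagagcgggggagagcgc
Mrpl47 (chr3:32736748-32736807, minus strand): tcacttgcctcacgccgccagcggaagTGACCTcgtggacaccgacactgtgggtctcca
Tank (chr2:61592891-61592950, plus strand): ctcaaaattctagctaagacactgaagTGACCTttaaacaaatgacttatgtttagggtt
The match lay 82 bases before the RefSeq start of its window for Ap1g2, 157 for Ldhb, 25 for Mrpl47 and 179 for Tank. The windows of Mrpl47 and Tank lie inside the GENCODE gene, and the match of Tank also stood 234 bases before a further RefSeq start.

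The earlier time points, WAT at 6 h and striatum at 12 h, share their PTU libraries with the 24 h comparison, so values are given side by side. Pak3 had -2.78 ± 0.24 in WAT at 6 h and -3.16 ± 0.25 at 24 h, and Slc1a5 had 1.90 ± 0.11 and 1.48 ± 0.10, while Col15a1 had -0.39 ± 0.19 and -2.40 ± 0.20. Slc7a10 had 0.16 ± 0.14 in WAT at 6 h, and Pank3 0.33 ± 0.13. The fall of these 2 genes and of Col15a1 in fat was thus called at 24 h and not at 6 h. In striatum, Hs6st1 had 1.11 ± 0.15 at 12 h and 1.16 ± 0.15 at 24 h, Pld3 had 0.83 ± 0.12 and 0.91 ± 0.12, and Col15a1 had 1.21 ± 0.29 and 1.41 ± 0.29. Hap1 had 0.01 ± 0.23 at 12 h and -1.09 ± 0.23 at 24 h. Nr1d1 had 0.58 ± 0.16 in WAT at 6 h and -1.67 ± 0.16 at 24 h, opposite in sign. Suclg1 had 0.05 ± 0.10 in WAT at 6 h, whereas Ppargc1a had 3.10 ± 0.17 and Dio2 5.32 ± 0.66.

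The Y-linked genes were called in this comparison along with the rest. Ddx3y had 1186, 1604, 1311 and 1722 counts in WAT PTU libraries and 1133, 1195, 1234 and 1093 at 24 h. In striatum it had 254 and 0 counts in PTU replicates 3 and 6 and 0.978, 0, 1.19 and 0 at 24 h. Its difference and those of Uty, Kdm5d and Eif2s3y rest on PTU replicate 3. Without that library none of the 4 was called. The X-linked genes Kdm6a, Ddx3x and Kdm5c, which escape inactivation, had differences of -0.06 ± 0.19, -0.11 ± 0.15 and 0.34 ± 0.27, none called.

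Leaving out each of the 14 libraries in turn gave between 201 and 1084 calls. Of the 668 genes, 128 were called in all 14 of these fits (19.2%), among them 26 of the opposite class, 45 of the WAT-alone class, 2 of the striatum-alone class and 8 of the class with the same direction.

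**Figure D5:**
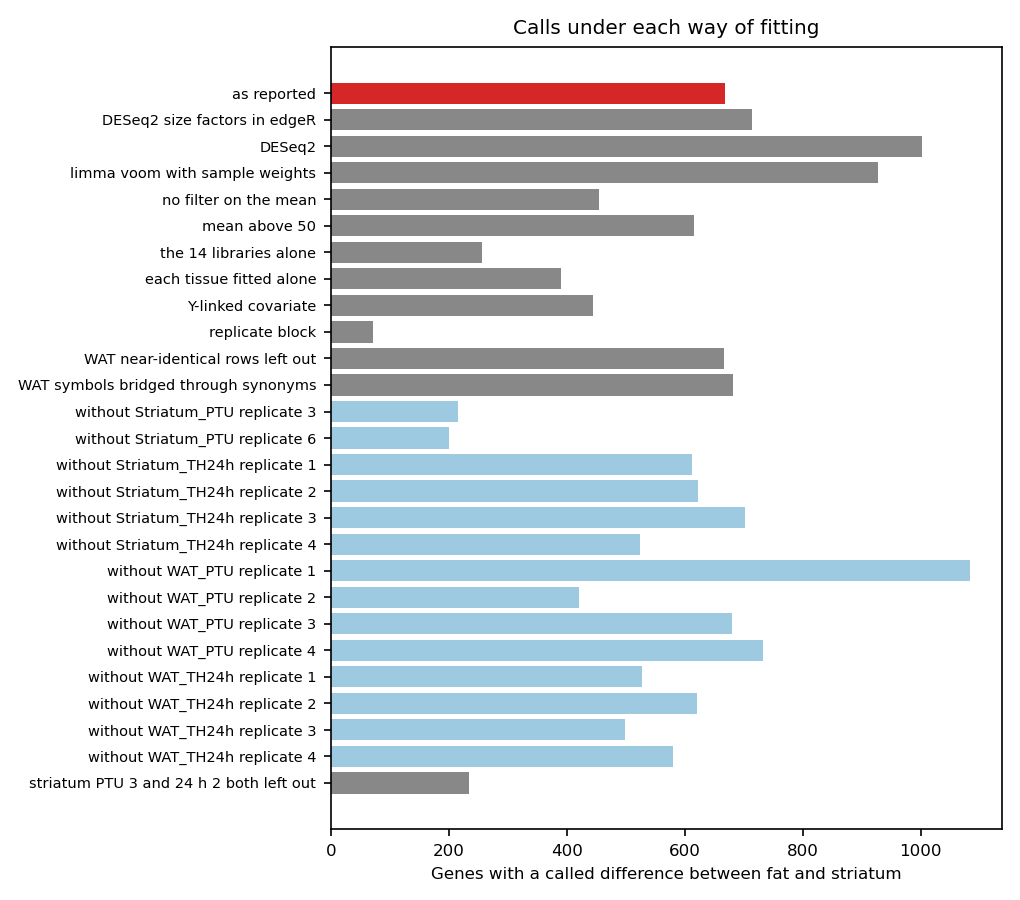
Number of genes with a called difference between fat and striatum (x axis, from 0) as reported (red), under other ways of fitting (grey) and without 1 library (blue). The count is 668 as reported, 201 without striatum PTU replicate 6, 215 without replicate 3 and 1084 without WAT PTU replicate 1.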

How the data were processed

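RNA was extracted with Trizol (WAT) or RNeasy (striatum), and libraries from the SENSE total RNA kit of Lexogen were read on a NextSeq 500. For each tissue the authors deposited raw counts of reads per gene, made with Bowtie2 (Galaxy version 2.2.6.2) on GRCm38, removal of low-quality alignments and htseq-count. The annotation release and the strand setting are not given in the sources used here. For WAT, 235 pairs of rows held nearly the same counts, and 20 tested genes stood on such a row.

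The counts were fitted with edgeR 4.0.16 in R 4.3.3 (quasi-likelihood test, two-sided), on all 22 libraries in 6 groups, with TMM factors computed per tissue. The 6 h and 12 h libraries thus helped to estimate the spread. Genes needed a mean normalised count above 10 in each tissue, and p-values were adjusted by Benjamini-Hochberg over the 12766 genes. Errors are standard errors and intervals are 95%. The script was tested on simulated data. DESeq2 1.42.0, limma 3.58.1, other filters, other sets of libraries, a Y-linked covariate and a replicate block were alternatives. Named genes were up to 5 per direction of each class and up to 2 called genes per list, by the smallest p (opposite genes also with groups apart in both tissues), with the study's own genes and the Y-linked and X-escape genes. Other genes named are called members of a list or were chosen after their values were seen. The members and lists were chosen with earlier results of these data known. Coordinates are from GENCODE M21 (GRCm38). Some genes that this rule names are not reported here.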

Additional observations from a re-analysis of the deposited data

Results flagged for a closer look

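Among 234 groups of 4 libraries examined over the named genes, 18 held a library whose gap to the nearest of the others exceeded Dixon's 95% critical value, where chance gives about 1 in 20. WAT PTU replicate 3 had 474 normalised counts of Ap1g2 (356 to 371 in the other 3), 71.3 normalised counts of Acot11 (39.4 to 44.2 in the other 3) and 4441 normalised counts of Idh3a (4675 to 4693 in the other 3). WAT TH 24 h replicate 3 had 69.0 normalised counts of Ccdc138 (59.2 to 60.8 in the other 3). WAT TH 24 h replicate 2 had 839 normalised counts of Col15a1 (1118 to 1161 in the other 3) and 3233 normalised counts of Bnip3 (2106 to 2259 in the other 3). WAT PTU replicate 2 had 17258 normalised counts of Ywhab (13775 to 14356 in the other 3) and 32.3 normalised counts of Arc (47.8 to 50.9 in the other 3). WAT PTU replicate 4 had 207 normalised counts of Ust (265 to 274 in the other 3). Striatum TH 24 h replicate 2 had 4156 normalised counts of Idh3a (3142 to 3311 in the other 3), 893 normalised counts of Cav2 (343 to 400.3 in the other 3), 47.1 normalised counts of Slc16a10 (33.3 to 35.2 in the other 3), 1308 normalised counts of Sema7a (809.6 to 848 in the other 3) and 1059 normalised counts of Ccnd2 (1197 to 1219.9 in the other 3). WAT PTU replicate 1 had 2120.3 normalised counts of Ldhb (1204 to 1262 in the other 3). Striatum TH 24 h replicate 3 had 583 normalised counts of Apln (732 to 751 in the other 3). WAT TH 24 h replicate 4 had 1983 normalised counts of Vegfb (1898 to 1905 in the other 3). Striatum TH 24 h replicate 1 had 3.91 normalised counts of Eif2s3y (0 in the other 3). Striatum TH 24 h replicate 2 is also the library with low Drd2 and high Slc17a7.

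The difference of the log2 changes (WAT minus striatum) passed the edgeR test for 70 of the named genes. More positive changes in fat were found, as log2 differences, for Vat1l 2.14, Hap1 1.71, Ap1g2 0.97, Fdx1 1.01, Ahcyl1 1.23, Zhx3 1.27 and Slc1a5 1.55. The log2 difference was also positive for Ccdc138 2.13, 4931406C07Rik 1.68, Acot11 3.88, Ppargc1a 1.88, Pdk4 3.04, Acaa2 0.85, Idh3a 0.97 and Suclg1 0.99. Further positive log2 differences were Mrpl47 0.74, Slc25a42 1.49, Pfkfb1 1.56, Ldhb 0.93, Cdkn1a 1.94, Arc 2.26 and Fosl2 1.27. Positive too were the log2 differences of Col6a4 1.60, Apln 2.63, Dio2 5.82, Hr 1.50, Syt12 2.84 and Ccnd1 0.98. More negative changes in fat were found, as log2 differences, for Col15a1 -3.81, Slc7a10 -2.50, Mal2 -2.58, Abcd2 -1.71, Plcb1 -1.77, Pak3 -3.21, Pank3 -1.64 and Cd164 -1.04. The log2 difference was also negative for Tmem43 -1.19, Ywhab -1.06, Pld3 -1.04, Hs6st1 -1.18, Tank -0.67, Ust -0.88, Tbc1d30 -0.73 and Acsl1 -2.09. Further negative log2 differences were Lpl -1.44, Pik3cb -1.33, Gsk3b -0.74, Nr1d1 -1.81, Cry2 -1.16, Cav1 -0.79, Cav2 -1.55 and Vegfb -0.49. Negative too were the log2 differences of Gli1 -2.90, Fzd3 -1.39, Bmpr2 -0.85, Bmp3 -2.45, Slc16a10 -1.26, Sema7a -1.44, Kcnk2 -2.63 and Kcnn3 -1.58. Last, negative log2 differences were found for Atg7 -1.11, Bnip3 -1.52, Asns -0.91, Syvn1 -0.78, Ccnd2 -0.96 and Thra -0.95. The Y-linked genes had log2 differences that rest on striatum PTU replicate 3, with Ddx3y 7.38, Uty 9.12, Kdm5d 7.59 and Eif2s3y 7.14, and the value of Uty depends on the prior count, since all 4 striatum TH 24 h libraries were at 0. What these differences share with the libraries that stand apart was not tested.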

How the results depend on the processing

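Of the 668 differences, 664 to 668 kept their sign in the alternatives that tested them all, as did 537 of 537 tested at a minimum of 50 and 666 of 666 with copied WAT rows left out, but the number called depended on the fit. DESeq2 gave 1002 calls (715 negative), 106 in striatum, 382 of the WAT-alone class and 16 of the striatum-alone class, and limma voom with sample weights gave 928, 134, 486 and 18 for the same counts without the split. Without a filter there were 455 calls (299 negative), 138 WAT-alone and 2 striatum-alone. Fitting the 14 libraries alone gave 257 calls (103 positive, 154 negative), 7 in striatum, 42 opposite, 70 WAT-alone and 2 striatum-alone. Fitting each tissue alone gave 391 (133 and 258) and 3 striatum-alone. A Y-linked covariate gave 444 (145 and 299), 19 in striatum and 104 WAT-alone. Leaving out both striatum PTU replicate 3 and TH 24 h replicate 2, chosen after seeing the data, gave 235 (84 and 151), 8 in striatum, 37 opposite, 44 WAT-alone and 2 striatum-alone. Without 1 library at a time, calls ran from 201 to 1084 (positive 77 to 365, negative 124 to 719), WAT calls from 2230 to 3856, striatum calls from 2 to 51, opposite genes from 36 to 146, WAT-alone from 32 to 495 and striatum-alone from 1 to 10. The lowest counts came without striatum PTU replicate 6 (201) or 3 (215), and without WAT PTU replicate 2 there were 421. DESeq2 size factors (714), a minimum of 50 (616), copied WAT rows left out (666) and bridged symbols (682, chosen after seeing the tables) stayed within 1.5 times. The cause was not tested.

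A replicate block gave 71 calls (33 positive, 38 negative), 6 in striatum, 19 opposite, 7 WAT-alone and 1 striatum-alone. The deviations of same-numbered libraries from their group means had r = 0.129, -0.223, 0.34 and -0.0904 in WAT and -0.354 for the striatum pair. Differently numbered WAT libraries ran from -0.376 to 0.298. The deviations of the 2 striatum controls mirror each other by construction. With so few pairs, these values cannot show whether same-numbered libraries belong together. Thrb reversed to 0.00994 under the block.

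Reversals were otherwise among genes near 0 or linked to the Y. Under the Y-linked covariate the log2 differences were -3.21 for Ddx3y, -0.12 for Uty, -0.54 for Kdm5d, -4.14 for Eif2s3y and 0.13 for Kdm6a. Without striatum PTU replicate 3 and TH 24 h replicate 2 together they were -3.78, -0.30, -3.41, -4.59 and 0.17. Without 1 library at a time, the lowest came without striatum PTU replicate 3 and the differences ran from -3.39 to 8.39 for Ddx3y, -0.30 to 10.2 for Uty, -3.56 to 8.60 for Kdm5d and -4.19 to 11.1 for Eif2s3y, while Kdm6a ran from -0.38 to 0.20, its highest without that library. Thrb ran from -0.22 to 0.093 (0.093, 0.03 and 0.02 without striatum PTU replicate 6, WAT PTU replicate 2 and WAT TH 24 h replicate 1), and Trp53inp2 from -0.0130 (without striatum TH 24 h replicate 1) to 0.19.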
